A study of Macaca mulatta with 6 samples.

Results

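The genes described here were chosen by symbol to cover the machinery that moves membrane vesicles inside cells and releases them. The rule took every feature named RAB, VPS, SNX, TSPAN, EXOC, STX, VAMP or CHMP followed by a digit, together with EPG5. The rule found 197 features with 196 different symbols among the 35432 features of the series, of which 24186 had a symbol. EPG5 was added to the rule by name and not through a family, after its high count in 1 library was known, so results are given with and without it.

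The samples were plasma from 2 rhesus macaques (called A and B), separated on a gradient into lipoproteins, extracellular vesicles (EVs, membrane-bound particles released by cells) and proteins. Each of the 3 fractions of each animal gave 1 library, so there were 6 libraries. All of them were labelled as plasma EV in their source and as treated with proteinase K, RNase and DNase. No stress history of the animals was labelled, although the series title refers to early life stress. Gene counts were analysed for the EV library of each animal (n = 2) and for the authors' sum for each animal, over libraries that the sources used here do not name.

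RAB proteins are small GTPases that give each membrane compartment its identity and recruit tethers and motors. VPS proteins form the retromer, tethering and ESCRT complexes that sort cargo at endosomes, sorting nexins (SNX) bind phosphoinositides there, and CHMP proteins build the ESCRT-III filaments that cut vesicles into multivesicular bodies, the source of exosomes. The exocyst (EXOC) tethers vesicles to the plasma membrane, syntaxins (STX) and VAMP proteins are SNAREs that fuse them, and tetraspanins (TSPAN) organise membrane domains and are common EV surface proteins. EPG5 is a tether that brings autophagosomes to lysosomes. The presence of these proteins in vesicles does not by itself mean that their RNA is there, and RNA is what was counted.

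Depth set what could be seen. The gene counts came to 10397 in the EV library of A and 2842 in that of B, and to 62794 and 54534 in the authors' sums. A member with 0 counts could hold up to 0.0289% of the counts of the EV library of A and up to 0.106% of that of B. These limits and the 95% intervals given here cover counting error only and treat counts as independent molecules. Markers of platelets, red cells, hepatocytes, neutrophils and monocytes, and lymphocytes had few counts. Of 30 such markers, 28 matched a symbol. They held 1 count in the EV library of A, from CD4 (3.57% of the markers, against 4.14% of protein-coding genes detected). In the EV library of B they held 0, where 1.95% of protein-coding genes were detected. In the sums they held 4 and 2 counts from CD4 and CD14 (7.14% in each, against 18.7% and 14.8%). At this depth these values do not tell whether RNA of these cells was absent. The platelet, red cell and hepatocyte markers that matched were at 0 in all 4 columns.

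Most of the trafficking genes had no counts. Of the 197 members, 151 (76.6%) were at 0 in both EV libraries and in both sums, against 77.5% of the 16836 named features that RefSeq lists as protein-coding genes. A total of 15 members had a count in at least 1 EV library, 7.61% of the members against 5.52% of protein-coding genes and 3.96% of all named features. The EV library of animal A detected 11 members (5.58%), where the background was 4.14% of protein-coding genes and 2.96% of named features. That of animal B detected 7 members (3.55%), where the background was 1.95% and 1.4%. Without EPG5, 14 members were detected in either EV library (7.14%), 10 in A (5.1%) and 6 in B (3.06%). RefSeq listed 196 of the 197 members as protein-coding, so the protein-coding background is the closer one. Named features also include many copies of small RNA genes.

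**Figure D1:**
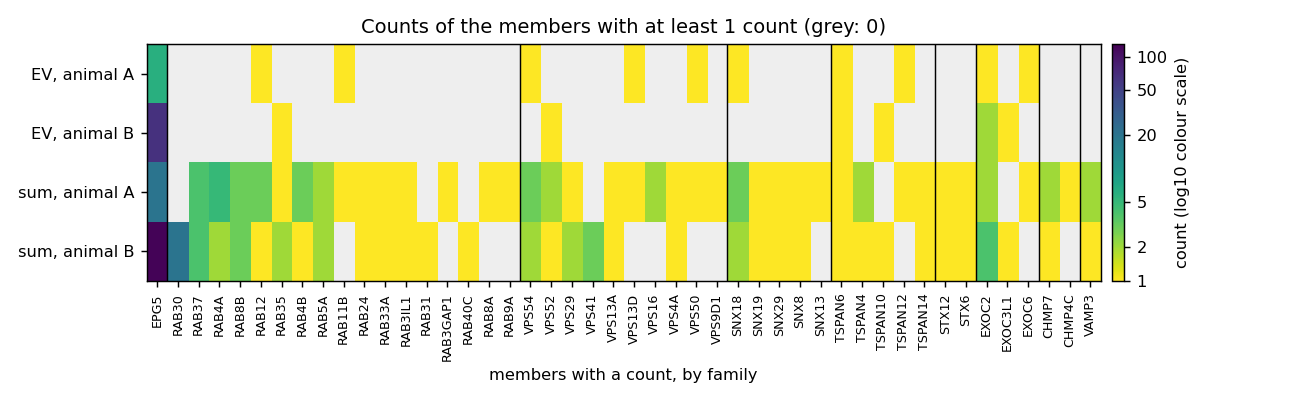
Counts of the 46 members with at least 1 count, grouped by family along the x axis, in the EV library and the authors' sum of each animal (y axis). Colour gives the count on a log10 scale and grey is 0. EPG5 is the only member above 2 counts in an EV library, and RAB30 reaches 20 in the sum of animal B alone.

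The detected members rested on very few molecules. In the EV library of A, 10 of the 11 detected members had exactly 1 count, or 90.9%, against 64.8% of the detected protein-coding genes. In that of B, 5 of 7 had 1 count, or 71.4%, against 72.3%. At a minimum of 2 counts the order turned in A, where only EPG5 passed, 1 of 197 members (0.508%), against 1.46% of protein-coding genes. In B 2 members passed, EPG5 and EXOC2, or 1.02% against 0.541%. Without EPG5 no member passed in A, and EXOC2 alone passed in B. The median count over detected members was 1 in each of the 4 columns, as it was over detected protein-coding genes. When the EV library of A was thinned to the 2842 counts of B, 3.59 members were expected to remain detected, 1.82% of the members against 1.71% of protein-coding genes.

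EPG5 held most of the members' counts in animal B. It had 6 counts in the EV library of A (0.0577% of the library, 95% exact binomial interval 0.0212% to 0.126%) and 65 in that of B (2.29%, 1.77% to 2.91%). It was the third most abundant named feature of EV B and ranked 65 in EV A. In the authors' sums it had 20 counts in A and 123 in B, so 14 and 58 counts remained outside its EV counts. As a description, its share in B was 39.6 times that in A in the EV libraries (exact interval 17.3 to 112), the value for which EPG5 had been chosen, and 4.20 times in the remainder (2.31 to 8.15). These intervals cover counting error in 1 column per animal and do not bear on differences between animals. More vesicles that carry a transcript, more of it per vesicle and PCR copies of few molecules cannot be told apart in such libraries. The protein-coding genes next to EPG5 in the RefSeq order of the macaque genome, PSTPIP2 and SIGLEC15, and those beyond them, ATP5F1A and SLC14A1, had 0 counts in all 4 columns.

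Without EPG5 the members held a small part of each library. The EV library of A gave them 10 counts (0.0962%, 0.0461% to 0.177%) and that of B gave 7 (0.246%, 0.0991% to 0.507%), or 0.171% ± 0.106 (SD, n = 2). The ratio of these shares, B over A, was 2.56 (0.827 to 7.45), an interval that includes equal shares. The sum of A gave them 63 counts (0.100%, 0.0771% to 0.128%) and that of B gave 68 (0.125%, 0.0968% to 0.158%). With EPG5 the EV share was 0.154% in A and 2.53% in B, or 1.34% ± 1.68 (SD, n = 2), a spread larger than the mean.

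**Figure D2:**
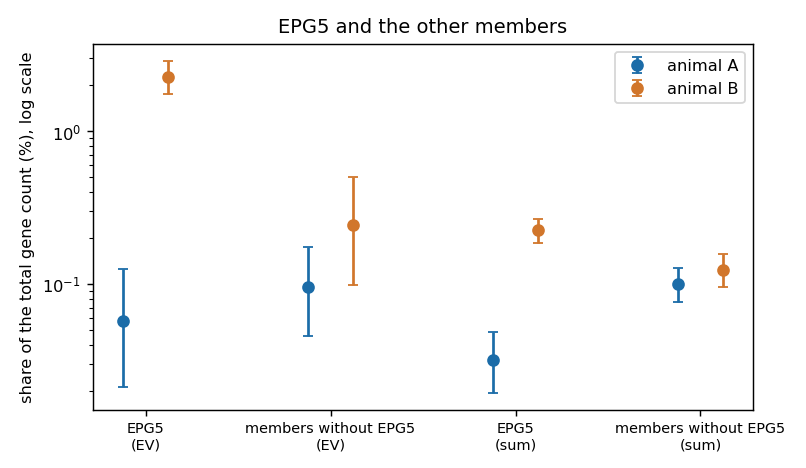
Share of the total gene count (y axis, percent, log scale) held by EPG5 and by the other 196 members in the EV libraries and in the authors' sums, for animal A and animal B. Points are shares of 1 column and bars are 95% exact binomial intervals. EPG5 stands at 0.0577% in EV A and 2.29% in EV B, whereas the intervals of the other members overlap between the animals.

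The RAB family was the largest, with 70 features, of which 61 were RAB GTPases and 9 were effectors, exchange factors or GTPase-activating subunits. In the EV libraries RAB genes were sparse. RAB12, linked to recycling receptor degradation, and RAB11B, a recycling endosome GTPase, had 1 count each in A and 0 in B. RAB35, which acts in endosomal recycling and exosome release, had 0 counts in A and 1 in B. These 3 of 70 (4.29%) compare with 5.52% of protein-coding genes detected in either EV library. Of 7 RAB genes known from vesicle release, 2 were detected in an EV library (28.6%), RAB11B and RAB35, with 1 count each. The others of the 7 had no EV count, and RAB7A, RAB11A, RAB27A and RAB27B were at 0 in all 4 columns. RAB31 had 0 counts in both EV libraries and 0 and 1 in the sums of A and B.

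In the authors' sums RAB genes were detected about as often as other protein-coding genes. Counts were present for 14 of 70 in A (20%) and 13 of 70 in B (18.6%), where the protein-coding background was 18.7% and 14.8%. RAB30, a Golgi GTPase, had 0 summed counts in A and 20 in B, and none in either EV library. Its neighbours in the RefSeq order, DDIAS and PCF11, were at 0 in all 4 columns, as was PRCP beyond DDIAS, and ANKRD42 beyond PCF11 had 1 and 2 summed counts and no EV count. RAB37, a GTPase of secretory granules, had 4 and 4 summed counts. RAB4A, which drives fast recycling from early endosomes, had 5 and 2. RAB8B had 3 and 3, RAB5A, the early endosome GTPase, had 2 and 2, and 1 of the 2 features named RAB4B had 3 and 1. RAB37, RAB4A, RAB8B, RAB5A and RAB4B had no EV count. RAB genes have close paralogs, and reads that map to several copies may have been lost, so their counts are uncertain. Multiply mapped reads made up 18.15% of the input reads of EV A and 26.77% of those of EV B.

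VPS genes were detected in an EV library in 4 of 34 cases (11.8%, against 5.52% of protein-coding genes). VPS50 and VPS54 had 1 count each in EV A and 0 in EV B, and VPS52 had 0 in EV A and 1 in EV B. These 3 are subunits of the related GARP and EARP tethers, which receive endosomal carriers at the Golgi or at recycling endosomes. Of the 5 subunits of these tethers 3 were thus detected in an EV library, while VPS51 and VPS53 had no count in any column. Summed counts were 3 in A and 2 in B for VPS54, 2 and 1 for VPS52, and 1 and 0 for VPS50. The grouping of VPS genes by complex was made after the values were seen and rests on 1 count per gene. Of the 34 VPS features, 3 were taken in by symbol but placed in none of the groups, and had no EV count.

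Among the other VPS genes only VPS13D, a lipid transfer protein, had an EV count, 1 in EV A and 0 in EV B. The background was 5.52% of protein-coding genes detected in either EV library. Zeros in groups as small as those below therefore do not set a complex apart. Of the 7 VPS-named subunits of ESCRT-I and ESCRT-II none had a count in any of the 4 columns. MVB12B, an ESCRT gene outside the symbol rule, had 2 counts in EV A and 0 in EV B. The 7 VPS-named HOPS and CORVET subunits, which tether late and early endosomes, had 0 EV counts. In the sums VPS16 had 2 and 0 and VPS41 had 0 and 3. Of the 6 retromer and retriever subunits only VPS29 had summed counts, 1 in A and 2 in B, with 0 in both EV libraries. VPS4A, the ATPase that takes ESCRT-III filaments apart, had 1 summed count in each animal and none in EVs.

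The 7 CHMP genes under the symbol rule, a part of ESCRT-III, were likewise at 0 in both EV libraries. The background was again 5.52% of protein-coding genes. In the sums CHMP7 had 2 counts in A and 1 in B, and CHMP4C had 1 and 0. Sorting nexins were detected in EVs in 1 of 29 cases (3.45%, against the same 5.52%). This was SNX18, a membrane-bending nexin, with 1 count in EV A and 0 in EV B. Its summed counts were 3 and 2. SNX8, SNX19 and SNX29 had 1 summed count in each animal and none in EVs.

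Exocyst and tetraspanin genes held 9 of the 17 EV counts that lay outside EPG5. EXOC2, an exocyst subunit, was the only member besides EPG5 with 2 counts in an EV library. It had 1 count in EV A and 2 in EV B, and 2 and 4 in the sums. EXOC6 had 1 count in EV A alone, and EXOC3L1, an exocyst paralog, had 1 in EV B alone. In both animals the whole sum of EXOC6 and EXOC3L1 equalled the EV count. Exocyst genes were thus detected in an EV library in 3 of 13 cases (23.1%, against the same 5.52%).

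Tetraspanins were detected in an EV library in 3 of 21 cases (14.3%). Each of these family rates rests on 3 or 4 genes with 1 or 2 counts. TSPAN6, which has been linked to exosome cargo, had 1 count in each EV library and 1 in each sum. TSPAN12, a co-receptor of Norrin signalling, had 1 count in EV A alone, and TSPAN10 had 1 in EV B alone. TSPAN4, the marker of migrasomes, had 0 EV counts and 2 and 1 summed counts. The SNARE genes were at 0 in both EV libraries, with none of 16 STX and none of 6 VAMP genes detected. Only 5.52% of protein-coding genes were detected in either EV library, so 0 in families this small is not read as depletion. In the sums STX6 and STX12, endosomal syntaxins, had 1 count in each animal, and VAMP3, a SNARE of recycling endosomes, had 2 and 1.

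**Figure D3:**
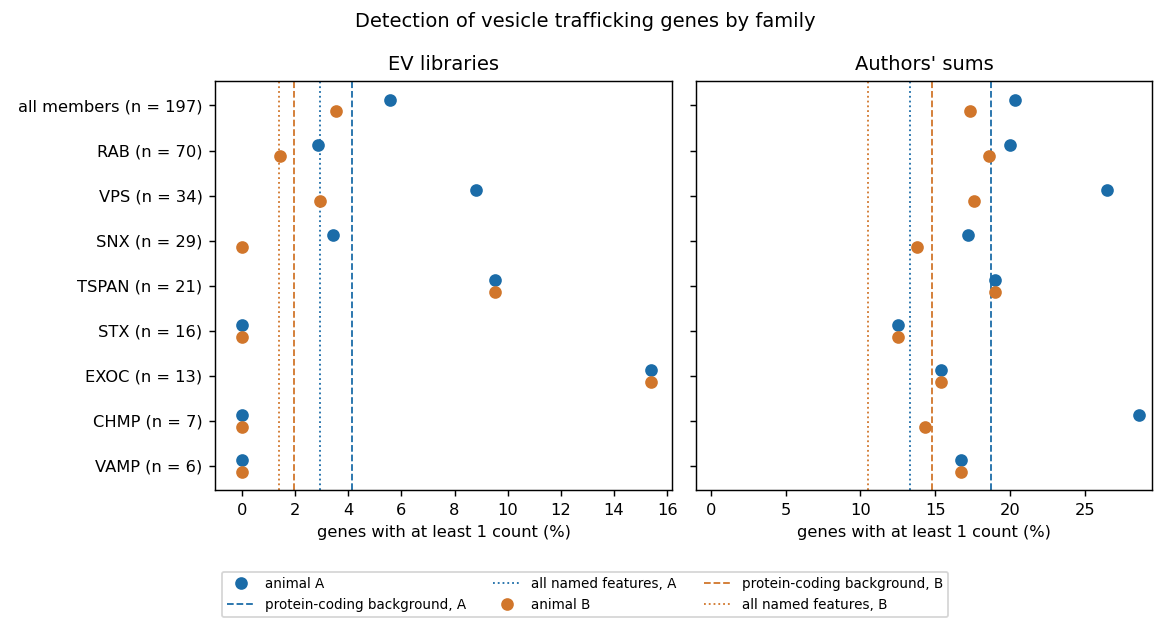
Percent of genes with at least 1 count (x axis) in the 2 EV libraries and in the authors' 2 sums, for all 197 members and for each family (y axis, n is the number of features). Dashed lines give protein-coding genes and dotted lines all named features, in the colour of the animal. EXOC, TSPAN and VPS points lie right of the lines of their animal in the EV panel, each from at most 3 genes per library, and STX, CHMP and VAMP lie at 0.

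EPG5, EXOC2 and TSPAN6 had counts in both EV libraries, 3 of 197 members. The background detected in both was 0.57% of protein-coding genes and 0.397% of named features. The 3 shared members were 27.3% of the members detected in A and 42.9% of those detected in B. For protein-coding genes the 96 detected in both were 13.8% of those in A and 29.2% of those in B. The members' values were the higher ones but rest on 3 genes, among them EPG5, chosen for its EV count. Without EPG5, 2 members were shared. In the sums 28 members were detected in both animals, 70.0% of the 40 in A and 82.4% of the 34 in B, against 59.7% and 75.3% for protein-coding genes. With EV counts subtracted, 38 members had counts left in either animal, and 17 of them had the same value in both (44.7%, against 31.4% of protein-coding genes). Most detected members had 1 summed count, 25 of 40 in A and 22 of 34 in B, and whether the sums share counts was not tested for the members.

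The question of whether RNA of the vesicle machinery is favoured in EV libraries was approached by 3 measures, none of which has a replicated control. The first was detection in the sums, where 40 members in A (20.3%) and 34 in B (17.3%) had a count. Without EPG5 there were 39 in A (19.9%) and 33 in B (16.8%). The background was 18.7% and 14.8% of protein-coding genes and 13.3% and 10.5% of named features. The members were thus detected in the sums at close to the rate of protein-coding genes.

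The second measure was how many members with a summed count also had an EV count. This held for 11 of 40 members in A (27.5%), against 21.6% of protein-coding genes and 21.8% of named features, and for 7 of 34 in B (20.6%), against 12.7% and 12.9%. The range of 1 to 5 summed counts leaves out EPG5 and RAB30. There it held for 10 of 39 members in A (25.6%), against 18.0% of protein-coding genes. In B it held for 6 of 32 (18.8%), against 11.2%. A gene whose sum equals its EV count may enter this measure only through that count, in the members and in the background. With EV counts subtracted, 34 of the 40 members in A and 30 of the 34 in B still had a count. The members were above the background in both animals, but on few genes and without an interval. Whether this reflects a preference was not tested. No member had an EV count above its sum, although some other genes did.

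The third measure was the EV count in percent of the summed count. The sums did not hold every EV count. Of the protein-coding genes, 15 in A and 11 in B had an EV count and a sum of 0, and 30 EV counts in A and 17 in B exceeded the gene's sum. For members the value was 19.3% in A (16 of 83 counts, 11.4% to 29.4%) and 37.7% in B (72 of 191, 30.8% to 45.0%). For protein-coding genes it was 13.9% in A and 2.96% in B, or 13.8% and 2.91% with each EV count limited to its gene's sum. For all features it was 16.6% and 5.21%. EPG5 gave 65 of the 72 EV counts in B. It had 52.8% of its own sum as EV counts in B (43.6% to 61.9%) and 30.0% in A (11.9% to 54.3%). Without EPG5 the members' value was 15.9% in A (7.88% to 27.3%) and 10.3% in B (4.24% to 20.1%). The interval included the value of protein-coding genes in A and lay above it in B.

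Genes with high sums dominate the background of this measure. Protein-coding genes with 1 to 5 summed counts held 4392 of the 36535 summed counts in A and 3420 of 30376 in B, whereas every member but EPG5 and RAB30 had at most 5. Genes with 1 to 5 summed counts were therefore set side by side. In that range the EV counts of the members came to 15.9% of their summed ones in A (7.88% to 27.3%), and in B to 14.6% (6.07% to 27.8%). For protein-coding genes it was 14.4% in A and 9.30% in B, both inside the members' intervals. This range leaves out EPG5 and RAB30. A gene whose sum equals its EV count may enter the range only through that count, in the members and in the background. In this range the third measure therefore cannot decide whether EV libraries prefer RNA of the members. By the second measure the members were above protein-coding genes in the same range, 25.6% against 18.0% in A and 18.8% against 11.2% in B. No interval was computed for the second measure.

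**Figure D4:**
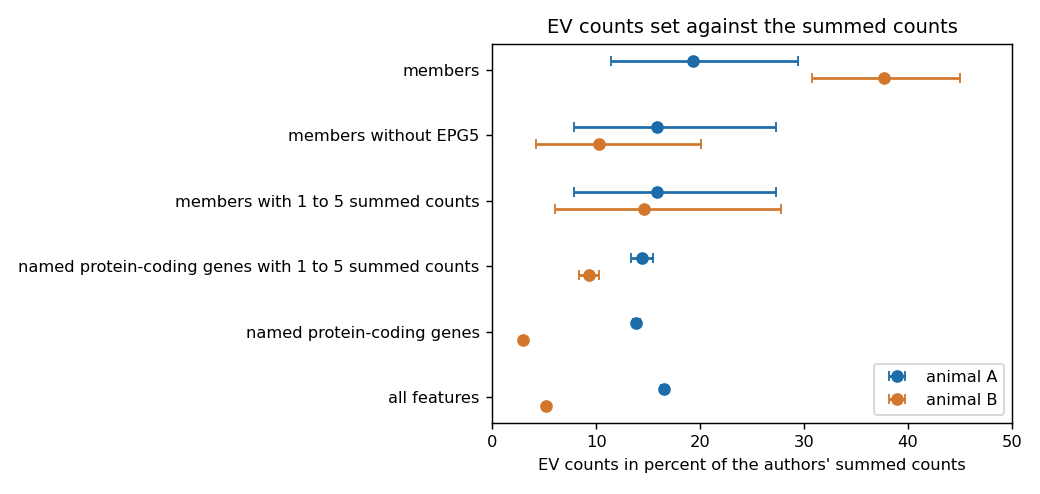
EV counts as a percent of the authors' summed counts (x axis) for groups of genes (y axis), in animal A and animal B, with 95% exact binomial intervals. All members stand at 37.7% in B, and without EPG5 at 10.3%. Members with 1 to 5 summed counts have intervals that include the protein-coding genes of the same range.

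Trafficking genes outside the symbol rule were followed through 6 further lists. Of their 242 features that were not members, 10 were detected in EV A (4.13%, against 4.14% of protein-coding genes) and 7 in EV B (2.89%, against 1.95%). Of coat and adaptor genes, 5 of 54 were detected in A and 2 of 54 in B. AP3D1, a subunit of the AP-3 adaptor for lysosomal cargo, had 7 counts in EV A and 1 in EV B, and GGA1, a Golgi adaptor, had 3 and 1. SNARE partners and Golgi and endoplasmic reticulum tethers had 0 EV counts in 29 and 30 features. The background was 5.52% of protein-coding genes detected in either EV library. STXBP3, a syntaxin-binding protein among the SNARE partners, had 103 and 46 summed counts. Among EV membrane and ESCRT genes CD9, a tetraspanin used as an EV marker, had 2 counts in each EV library, MVB12B had 2 and 0, and CD81 was at 0 in both. RAB regulators gave 2 of 60 in each library, with 1 count each from DENND5A and EVI5 in A and from DENND3 and TBC1D10C in B. Of 45 autophagy features, EPG5 had 71 of the 74 EV counts, and the others came from WDR45, OPTN and SQSTM1 with 1 each.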

How the data were processed

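The authors deposited raw counts per gene for the EV library of each animal and summed counts per gene and animal, under Ensembl gene identifiers. STAR is named as the aligner in the submitters' processing notes; version, build, annotation and counting are not given in the sources used here. The authors deposited a mapping table in percent of the reads, from which the multiply mapped share is given. Per the labels' protocols, a Norgen kit gave the RNA and a QIAseq UPXome kit the libraries. Nothing says that molecular identifiers were used to collapse counts, which may include PCR copies.

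Genes absent from the EV table, which lists 4642 features, were given 0. Symbols matched 24186 features, and 16836 of these carry the symbol of a protein-coding gene in RefSeq (assembly T2T-MMU8v2.0), used for names and gene order only. A gene was called detected at 1 count. Shares have 95% Clopper-Pearson intervals and ratios of shares exact conditional binomial intervals (scipy 1.17.1). On simulated data for EV B over EV A, 803 of 806 ratio intervals held the true ratio. Most features with a count in an EV library had 1 count, where such intervals are wide. The check therefore says little about ratios from more counts. The simulated counts were independent and mostly had equal shares. The simulation therefore does not cover PCR copies or a gene chosen for its value, such as EPG5. Thinning used the exact hypergeometric expectation. No tests were run, since each column has 1 library or sum per animal. The EV libraries come from different animals.

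The members, lists and alternatives were chosen with earlier results of these data known. Named members are those with an EV count and up to 3 per family with the highest mean sums. Others (RAB4B, RAB5A, RAB8B and members named at 0 or by complex) and the grouping by complex or role were chosen after their values were seen. From each other list up to 3 genes with the most counts over both EV libraries are named, with ties, or over both sums where all EV counts are 0. CD81 was named after its values were seen.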

Additional observations from a re-analysis of the deposited data

How the results depend on the processing

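Detection depended on the minimum count. The 15 members detected in either EV library became 2 at a minimum of 2 counts, 1 at 10 counts and 9.19 when the larger library was thinned to the smaller, by construction of a stricter rule. Leaving out either animal gave 7 to 11. In the sums, 40 members in A and 34 in B became 15 and 12 at 2 counts, and 1 and 2 at 10 counts. The mean share of EV counts, 1.34%, was 4.09% of the counts of named features, was 0.84% with the 10 most abundant features left out (EPG5 among them in B), was 0.171% without EPG5, and ranged from 0.154% to 2.53% when either animal was left out. The EV count in percent of the summed count in B, 37.7%, was 10.3% without EPG5 and 20.6% as a share of members. It was 14.6% without EPG5 and RAB30, and 14.6% for members with 1 to 5 summed counts; these last alternatives were chosen after seeing the data. No paired analysis was possible because gene counts were analysed for 1 fraction only, and the authors' sums are not libraries of another fraction.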
